A study of Mus musculus with 6 samples.

Results

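The genes described here are the proteasome subunits, their assembly chaperones and their regulators in Hepa1-6 cells, a mouse liver tumour line, after siRNA against Crebl2. They were chosen by name: protein-coding genes whose GENCODE M21 symbol begins with Psma, Psmb, Psmc, Psmd, Psme, Psmf or Psmg. The rule found 50 members among the 38828 genes of the files, a number that includes 347 transcript rows with no match in that annotation, each kept as a unit of its own. One member, Psmc3ip, carries the prefix because its protein binds Psmc3 and is a meiotic recombination factor, so it is kept apart and 49 members belong to the proteasome. The study has 6 libraries of total RNA: 3 from cells transfected with siRNA against Crebl2, a basic leucine zipper protein, and 3 from cells transfected with siRNA against Renilla luciferase (Luc), which has no mouse target. All cells were transfected with Lipofectamine RNAiMAX for 3 days in a medium that held 10% serum and 4.5 g/L of glucose, and no untransfected cells were analysed here. The labels name 1 cell line and do not say how many siRNA sequences were used or whether each library had its own culture. The p-values therefore reflect the spread among these samples only, and that spread may be technical.

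The 26S proteasome degrades proteins that carry ubiquitin chains. Its barrel-shaped core is built of alpha rings that gate the entrance and beta rings that hold the peptidase sites, and a cap binds ubiquitin, unfolds the protein and feeds it into the barrel. The cap has a base, with a ring of ATPases, and a lid, which removes the ubiquitin chain. Interferon-induced beta subunits can replace the constitutive catalytic ones to form the immunoproteasome, which favours peptides presented to T cells. In mammals the transcription factor Nfe2l1 raises the subunit genes together when proteasome activity falls short.

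The deposited values are read counts per Ensembl transcript, with library totals between 27082572 and 29158489. Reads that fit several transcripts of a gene were apparently not counted, since only 0.0235% of all counts lay on rows whose every exonic base was shared. For 46 of the 50 members all counts lay on 1 transcript row, and for 12 members that row had under 500 bases of its own. Counts of different members are therefore not comparable as abundances, and each member is compared only with itself between libraries. Crebl2 itself measured 29.1, 29.8 and 32.3 CPM (counts scaled to library size) in the Crebl2 siRNA libraries, against 114, 113 and 112 CPM in the Luc siRNA libraries. That is a log2 change of -1.90 (standard error, SE, 0.0582; edgeR quasi-likelihood test, adjusted p = 2.83e-12), and the groups did not overlap. Crebl2 siRNA replicate 2 stood apart in mitochondrially encoded genes, which took 2.23, 0.859 and 2.09% of counts in the Crebl2 siRNA libraries and 2.31, 2.48 and 2.52% in the Luc siRNA libraries. Of the hepatocyte markers, Alb had 45028 counts summed over the Crebl2 siRNA libraries and 48500 over the Luc siRNA libraries, while Apoa2 and Hnf4a were at 0. In the same list of 8, Foxa3 fell (log2 change -0.81; edgeR adjusted p = 8.67e-08), Trf fell (-0.42; 7.27e-05) and Afp rose (0.36; 9.26e-06), and the list summed to 1065 to 1129 CPM in Crebl2 siRNA libraries and 1045 to 1142 CPM in Luc siRNA libraries. Summed macrophage markers were at 0.623 to 1.05 CPM in Crebl2 siRNA libraries and 0.597 to 1.03 CPM in Luc siRNA libraries, with Ptprc at 0, and endothelial markers were at most 0.148 and 0.110 CPM. Fibroblast markers summed to 121 to 132 CPM in Crebl2 siRNA libraries and 174 to 178 CPM in Luc siRNA libraries, nearly all from Dcn and with Pdgfrb at 0. Cholangiocyte markers, all 4 detected, summed to 672 to 726 CPM in Crebl2 siRNA libraries and 676 to 740 CPM in Luc siRNA libraries. Among these, Krt7 fell (log2 change -0.56) and Krt19 and Sox9 rose (0.30 and 0.16). The part of these markers, and of Dcn (-0.55), in the results below was not tested.

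Of the proteasome genes, more rose than fell in Crebl2-depleted cells, by small amounts. Of 46 members with enough counts to test, 16 rose and 2 fell, where 18.8% of all 11616 genes tested rose and 20.1% fell, 38.9% in all. The members' shares were 34.8% and 4.35%. Calls were made at a Benjamini-Hochberg adjusted p under 0.05 over all genes tested. The median log2 fold change was 0.09 over the tested members and 0.01 over all genes tested. Groups did not overlap for 25 members with the Crebl2 siRNA libraries above and for 4 with them below, beside 23.8% and 24.9% of all genes, 48.8% in all. Among the constitutive alpha, beta, base and lid subunits alone, 14 of 30 tested rose and 0 fell at the adjusted threshold. The other raised members were the chaperone Psmg2 and Psmc3ip. Every member that rose changed by 25.2% or less, the largest being Psmd13, so the calls describe small shifts. Together the 50 members took 0.832, 0.840 and 0.844% of all counts in the Crebl2 siRNA libraries. In the Luc siRNA libraries they took 0.744, 0.756 and 0.745%, a description without a test. These shares divide by raw library totals, without the scaling used for the fold changes above. With library size as the only scaling, the median log2 fold change of all genes tested was 0.054. In RNA from whole cultures, more cells with active genes and more RNA per cell cannot be told apart.

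**Figure D1:**
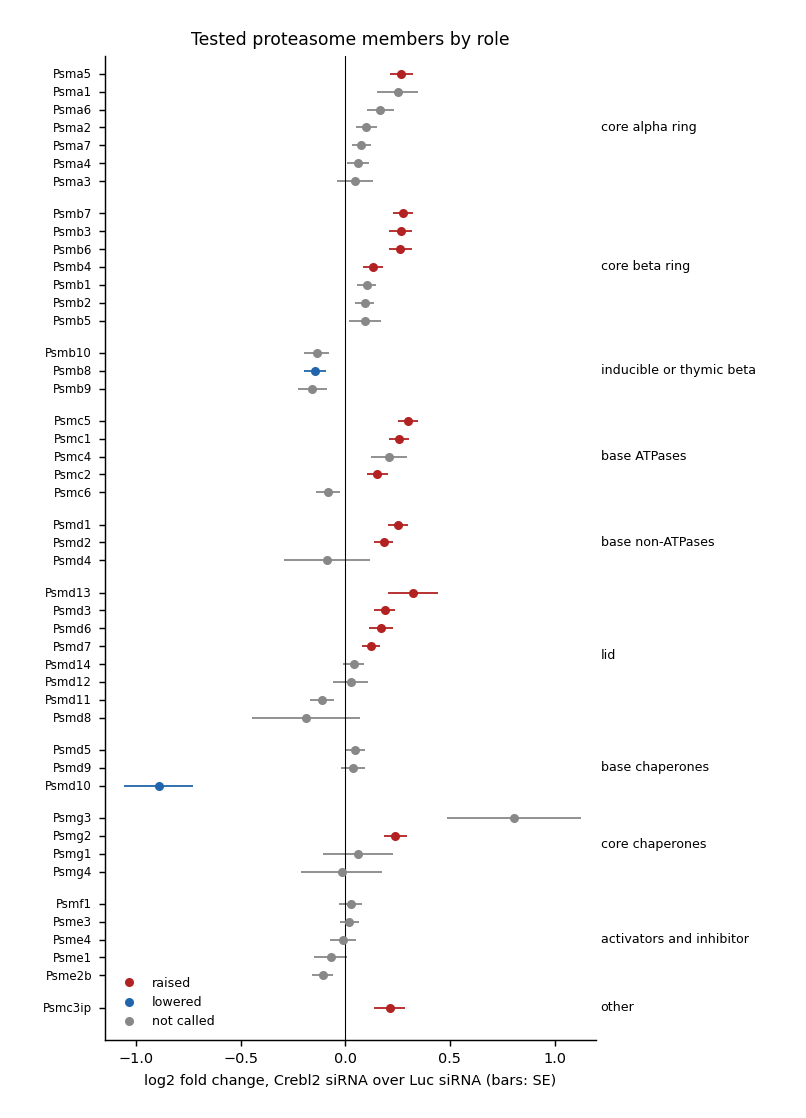
Log2 fold change (x axis, Crebl2 siRNA over Luc siRNA) of the 46 tested members in rows grouped by role, with bars for the SE; red points were raised, blue lowered and grey not called. The beta ring lies right of 0 in all 7 rows, the 3 inducible beta subunits lie left of it, and Psmd10 is far below the rest at -0.89.

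The number of raised members depended on the libraries used. It was 14 without Crebl2 siRNA replicate 2, and it dropped to 10 without Luc siRNA replicate 3, where 1 member fell. Of the 16 raised members, 10 were called in all 15 alternative settings, namely Psma5, Psmb3, Psmb6, Psmb7, Psmc1, Psmc5, Psmd1, Psmd2, Psmd3 and Psmg2. With library size as the only scaling 24 members rose, but that setting also moved the share of upward calls among all genes to 58.8%, against 48.3% in the main fit.

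**Figure D2:**
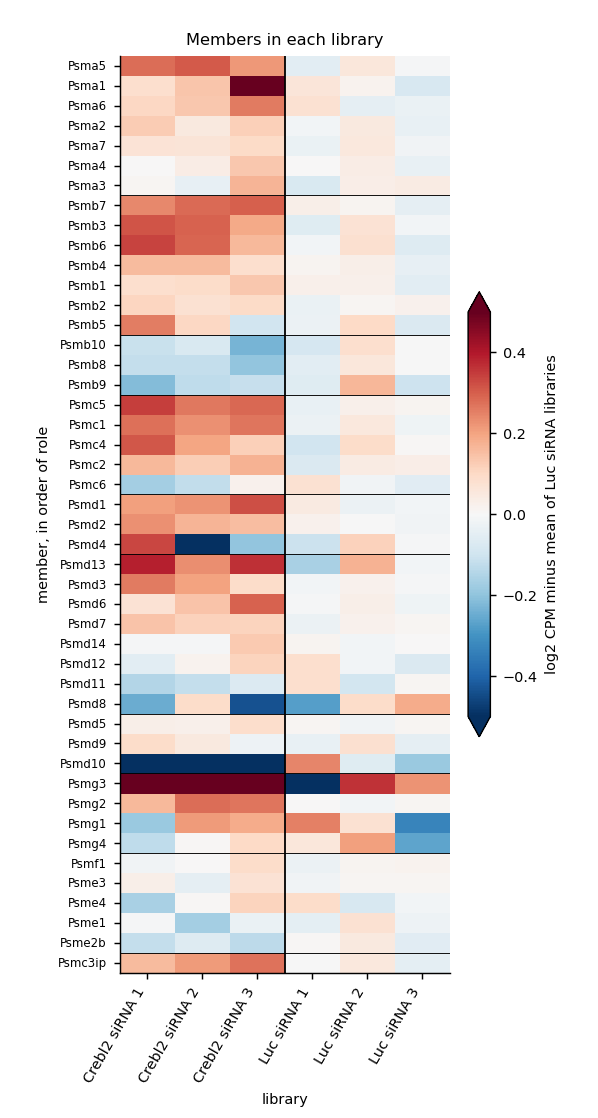
Log2 CPM of each tested member (rows, ordered by role, black lines between roles) in each library (columns, Crebl2 siRNA left of the vertical line), relative to the mean of the Luc siRNA libraries; colours end at 0.5 in either direction. Raised members such as Psmc5, Psmc1, Psmb7 and Psmd1 are red in all 3 Crebl2 siRNA libraries, whereas Psma1 is high chiefly in replicate 3.

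In the alpha ring, whose subunits form the gate, all 7 tested members had a log2 fold change above 0 and 1 rose. Of all genes tested, 18.8% rose. Psma5 measured 64.6, 65.8 and 61.9 CPM in Crebl2 siRNA libraries, against 51.3, 55.4 and 53.0 CPM in Luc siRNA libraries. The groups were well apart, with a log2 change of 0.27 (SE 0.0568; edgeR adjusted p = 0.0013). Psma6 and Psma1 missed the threshold narrowly. Psma6 had a log2 change of 0.17 (edgeR adjusted p = 0.0503), with its highest library, 49.6 CPM, in the Crebl2 siRNA group and its lowest, 40.1 CPM, in the Luc siRNA group. Psma1 stood at 20.5, 21.3 and 27.3 CPM in Crebl2 siRNA libraries, against 20.2, 19.6 and 18.3 CPM in Luc siRNA libraries (edgeR adjusted p = 0.0531), so Crebl2 siRNA replicate 3 stood well above the other libraries. The groups of both genes did not overlap. Without Crebl2 siRNA replicate 3 the log2 change was 0.109 for Psma1 (adjusted p = 0.274) and 0.118 for Psma6 (0.13). Each was called when Crebl2 siRNA replicate 1 was left out (adjusted p = 0.0268 for Psma6 and 0.0107 for Psma1), Psma6 also without Luc siRNA replicate 1 (0.0383) and Psma1 without Crebl2 siRNA replicate 2 (0.042). Psma2, Psma7, Psma4 and Psma3 had log2 fold changes of 0.10, 0.08, 0.06 and 0.05 and were not called. Psma8, the testis form of an alpha subunit, had 0 counts in all 6 libraries.

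The constitutive beta ring, which carries the peptidase sites, showed 4 of 7 members raised and the other 3 above 0 without a call. The share raised among all genes tested was 18.8%. Psmb7, the trypsin-like subunit, measured 186, 192 and 194 CPM in Crebl2 siRNA libraries, against 161, 159 and 153 CPM in Luc siRNA libraries. Its log2 fold change was 0.27 (SE 0.0486; edgeR adjusted p = 0.000293). Psmb6, the caspase-like subunit, stood at 369, 357 and 327 CPM in Crebl2 siRNA libraries and at 289, 309 and 279 CPM in Luc siRNA libraries, a log2 change of 0.26 (SE 0.0553; edgeR adjusted p = 0.00124). Both groups were separate for each of these catalytic subunits. Psmb3, a structural subunit, had 101, 99.6 and 92.6 CPM in Crebl2 siRNA libraries, against 78, 85.5 and 80.5 CPM in Luc siRNA libraries (log2 fold change 0.26, SE 0.0565; edgeR adjusted p = 0.00141). Psmb4, also structural, had 545, 544 and 517 CPM in Crebl2 siRNA libraries, against 492, 498 and 474 CPM in Luc siRNA libraries (log2 fold change 0.13, SE 0.0466; edgeR adjusted p = 0.032). The Psmb4 call was the weakest of the ring: it was lost without Crebl2 siRNA replicate 1 (adjusted p = 0.0647) or 2 (0.0939) and without Luc siRNA replicate 1 (0.0568), 2 (0.0641) or 3 (0.177). Psmb5, the chymotrypsin-like subunit and main target of bortezomib, was not called at 65.0, 58.5 and 50.9 CPM in Crebl2 siRNA libraries, against 53.4, 58.3 and 51.8 CPM in Luc siRNA libraries. Its groups overlapped through Crebl2 siRNA replicate 3, without which its log2 fold change was 0.18 (edgeR adjusted p = 0.036). Without Crebl2 siRNA replicate 1 the Psmb5 value was 0.008 (adjusted p = 0.948). Psmb1 and Psmb2 had log2 fold changes of 0.10 and 0.09 (edgeR adjusted p = 0.0922 and 0.125) with groups that did not overlap. Psmb7 shares bases with Nek6 on the opposite strand, a gene with 1391 counts in all, and reads there cannot be told apart unless counting used strand.

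Of the 3 inducible beta subunits tested, 1 fell and the others were not called, where 20.1% of all genes tested fell. Psmb8, the inducible chymotrypsin-like subunit, fell to 132, 132 and 125 CPM in Crebl2 siRNA libraries, against 138, 149 and 143 CPM in Luc siRNA libraries. The groups did not overlap, and the log2 fold change was -0.14 (SE 0.0517; edgeR adjusted p = 0.0365). Psmb9, the inducible counterpart of Psmb6, stood at 45.3, 48.2 and 48.5 CPM in Crebl2 siRNA libraries and at 50.4, 59.0 and 48.9 CPM in Luc siRNA libraries, and was not called (log2 fold change -0.16; edgeR adjusted p = 0.0893), although its groups did not overlap. Psmb10, the counterpart of Psmb7, stood at 93.6, 95.8 and 86.1 CPM in Crebl2 siRNA libraries and at 95.4, 107 and 101 CPM in Luc siRNA libraries, with groups that overlapped (log2 fold change -0.14; edgeR adjusted p = 0.0761). Psmb10 was called without Luc siRNA replicate 1 (log2 fold change -0.181; edgeR adjusted p = 0.0399), while the value was -0.093 without Crebl2 siRNA replicate 3 (0.196). The Psmb8 call was lost without Crebl2 siRNA replicate 2 (edgeR adjusted p = 0.0865) or 3 (0.0686), without Luc siRNA replicate 2 (0.163) or 3 (0.0961), and with library size as the only scaling (0.155). Psmb11, the thymus subunit, had 5 counts over the 6 libraries.

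Each inducible subunit was also set against its constitutive counterpart within a library, which needs no scaling. The log2 count ratio of Psmb9 over Psmb6 was -3.02, -2.89 and -2.76 in Crebl2 siRNA libraries, against -2.52, -2.39 and -2.51 in Luc siRNA libraries, a difference of -0.42. For Psmb10 over Psmb7 the ratio was -0.99, -1.01 and -1.17 in Crebl2 siRNA libraries, against -0.75, -0.57 and -0.60 in Luc siRNA libraries, a difference of -0.41. For Psmb8 over Psmb5 it was 1.02, 1.17 and 1.29 in Crebl2 siRNA libraries, against 1.37, 1.35 and 1.46 in Luc siRNA libraries, a difference of -0.23. The groups were separate for all 3 ratios, each lower in 3 of 3 Crebl2 siRNA libraries than in any Luc siRNA library. Complete separation was common among single genes tested, at 48.8% in either direction and 24.9% with the Crebl2 siRNA libraries lower. That share was not worked out for ratios of other gene pairs. The ratios come from the same counts as the single-gene comparisons above, so they are not a further finding. The exact two-sided permutation test gave p = 0.1 for each, adjusted p = 0.1 over the 3 ratios, which is the smallest that 3 against 3 libraries allow.

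**Figure D3:**
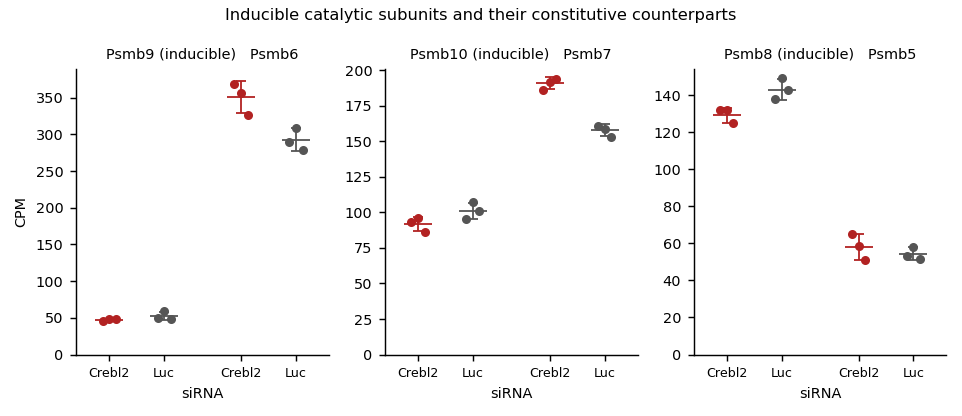
CPM (y axis, from 0) of each inducible beta subunit (left pair in each panel) and its constitutive counterpart (right pair) in Crebl2 siRNA (red) and Luc siRNA (grey) libraries; points are libraries, bars the mean and SD of 3. Psmb6 and Psmb7 sit higher with Crebl2 siRNA and Psmb8 lower, while the Psmb5 groups overlap.

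In the base of the cap, the ATPases that unfold substrates included the raised member with the smallest p. Psmc5 (Rpt6) measured 411, 389 and 395 CPM in Crebl2 siRNA libraries, against 315, 329 and 327 CPM in Luc siRNA libraries. That is 23.1% higher, a log2 change of 0.30 (SE 0.0465; edgeR adjusted p = 8.25e-05), with groups far apart. Psmc1 (Rpt2) stood at 188, 182 and 187 CPM in Crebl2 siRNA libraries and at 152, 161 and 153 CPM in Luc siRNA libraries (log2 fold change 0.26, SE 0.0485; edgeR adjusted p = 0.000501). Psmc2 (Rpt1) had 223, 217 and 225 CPM in Crebl2 siRNA libraries, against 190, 205 and 204 CPM in Luc siRNA libraries (log2 fold change 0.15, SE 0.0494; edgeR adjusted p = 0.0218). Its call was lost without Luc siRNA replicate 1 (adjusted p = 0.113) or 3 (0.0531). Not all ATPases followed. Psmc4 (Rpt3) had a log2 change of 0.21 that was not called (edgeR adjusted p = 0.0629), on a row with 196 bases of its own, and was called without Crebl2 siRNA replicate 3 (0.0282) but stood at 0.158 without Crebl2 siRNA replicate 1 (0.189). Psmc6 (Rpt4) stood at 163, 168 and 186 CPM in Crebl2 siRNA libraries, against 193, 181 and 176 CPM in Luc siRNA libraries, with overlapping groups and a log2 change of -0.08 (edgeR adjusted p = 0.274). Without Crebl2 siRNA replicate 3 Psmc6 was called lower (log2 fold change -0.142; edgeR adjusted p = 0.0343), whereas the value was -0.043 without Crebl2 siRNA replicate 1 (0.614) and -0.047 without Luc siRNA replicate 1 (0.605). Psmc3 (Rpt5) had 14 counts over the Crebl2 siRNA libraries and 22 over the Luc siRNA libraries, too few to test.

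The large scaffold subunits of the base rose as well. Psmd1 (Rpn2) measured 430, 435 and 466 CPM in Crebl2 siRNA libraries, against 384, 365 and 369 CPM in Luc siRNA libraries (log2 fold change 0.25, SE 0.0485; edgeR adjusted p = 0.000596). Psmd2 (Rpn1), which docks shuttle proteins, had 445, 427 and 423 CPM in Crebl2 siRNA libraries, against 385, 379 and 375 CPM in Luc siRNA libraries (log2 fold change 0.18, SE 0.0455; edgeR adjusted p = 0.00408). Neither pair of groups overlapped. Psmd4 (Rpn10), a ubiquitin receptor, rested on 172 counts over the Crebl2 siRNA libraries and 183 over the Luc siRNA libraries and was not called.

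The lid was divided, with 4 of 8 members raised, beside 18.8% of all genes tested. Psmd3 (Rpn3) measured 674, 646 and 600 CPM in Crebl2 siRNA libraries, against 557, 570 and 560 CPM in Luc siRNA libraries (log2 fold change 0.19, SE 0.0502; edgeR adjusted p = 0.00712). Psmd6 (Rpn7) stood at 205, 215 and 239 CPM in Crebl2 siRNA libraries and at 194, 199 and 192 CPM in Luc siRNA libraries (log2 fold change 0.17, SE 0.0565; edgeR adjusted p = 0.0238). Psmd7 (Rpn8), the partner of the deubiquitinase, had 401, 393 and 392 CPM in Crebl2 siRNA libraries, against 356, 368 and 365 CPM in Luc siRNA libraries (log2 fold change 0.12, SE 0.0446; edgeR adjusted p = 0.0384). For all 3 the lowest Crebl2 siRNA library lay above the highest Luc siRNA library. Psmd13 (Rpn9), on few counts, had 7.02, 6.30 and 6.92 CPM in Crebl2 siRNA libraries, against 4.80, 6.06 and 5.31 CPM in Luc siRNA libraries (log2 fold change 0.32, SE 0.119; edgeR adjusted p = 0.0399). Psmd14 (Rpn11), the deubiquitinase that removes the chain, was not called at 212, 212 and 233 CPM in Crebl2 siRNA libraries, against 215, 211 and 213 CPM in Luc siRNA libraries. Psmd12 (Rpn5), Psmd11 (Rpn6) and Psmd8 (Rpn12) had log2 fold changes of 0.03, -0.11 and -0.19, none called. The other lid calls were lost when 1 library was left out. For Psmd6 this held for Crebl2 siRNA replicate 3 (edgeR adjusted p = 0.0727) and Luc siRNA replicates 1 (0.0574), 2 (0.0523) and 3 (0.0962). For Psmd7 it held for Crebl2 siRNA replicates 1 (edgeR adjusted p = 0.074) and 2 (0.0801) and Luc siRNA replicates 1 (0.12), 2 (0.0856) and 3 (0.119). For Psmd13 it held for Crebl2 siRNA replicates 1 (edgeR adjusted p = 0.0896) and 3 (0.0778) and Luc siRNA replicates 1 (0.158) and 3 (0.104), and DESeq2 did not call it either (0.0786).

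Assembly factors were mixed, and they held the steepest fall. Psmd10 (gankyrin), a chaperone of the base that also binds the retinoblastoma protein and Mdm2, fell to 1.90, 2.16 and 2.45 CPM in Crebl2 siRNA libraries, against 4.73, 3.83 and 3.51 CPM in Luc siRNA libraries. That is a log2 change of -0.89 (SE 0.165; edgeR adjusted p = 0.000429), called in all 15 alternatives with adjusted p up to 0.00281. The fall rests on 181 counts over the Crebl2 siRNA libraries and 337 over the Luc siRNA libraries. These lay on 79 bases that its row (1430 bases) does not share with other transcripts. Psmd10 has 2 transcript rows, and the other row held no counts. A shift between the 2 transcripts and a fall of the whole gene cannot be told apart in these counts. The other base chaperones, Psmd5 and Psmd9, had log2 fold changes of 0.05 and 0.04 and were not called. Psmg2, which pairs with Psmg1 to build the alpha ring, measured 65.1, 70.7 and 70.1 CPM in Crebl2 siRNA libraries, against 58.3, 57.7 and 58.7 CPM in Luc siRNA libraries (log2 fold change 0.24, SE 0.0557; edgeR adjusted p = 0.0028). Psmg1 itself stood at 2.90, 3.82 and 3.75 CPM in Crebl2 siRNA libraries and at 3.93, 3.48 and 2.62 CPM in Luc siRNA libraries and was not called (log2 fold change 0.06, SE 0.169). Psmg3 had a log2 change of 0.81 without a call (SE 0.321; edgeR adjusted p = 0.0569), on 72 counts over the Crebl2 siRNA libraries and 41 over the Luc siRNA libraries, and was called without Crebl2 siRNA replicate 3 (0.0427) but stood at 0.563 without Luc siRNA replicate 1 (0.223). Psmg4, with 140 and 142 counts, had a log2 change of -0.02.

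None of the 5 tested activators and inhibitors of the core was called. Psme2b, with the smallest p among them, stood at 129, 134 and 128 CPM in Crebl2 siRNA libraries, against 141, 145 and 135 CPM in Luc siRNA libraries (log2 fold change -0.11, SE 0.0506; edgeR adjusted p = 0.103). Its groups did not overlap. Psme1, the other subunit type of the interferon-inducible PA28 activator, had a log2 change of -0.07 (SE 0.0777). Psme3, the nuclear PA28 gamma, was at 0.02 (SE 0.0471), Psme4, the PA200 activator, at -0.01 (SE 0.0634) and Psmf1, the PI31 regulator, at 0.03 (SE 0.0556). Psme4 varied more between libraries than between groups, at 411, 461 and 496 CPM in Crebl2 siRNA libraries and 490, 435 and 455 CPM in Luc siRNA libraries.

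Some members share sequence with a copy elsewhere in the genome, so the locus behind their counts is uncertain. Psme2 encodes the beta subunit of PA28 and lies on chromosome 14 (55587441 to 55591113, GRCm38), and Psme2b is a copy on chromosome 11 (48945354 to 48946190). Their transcripts were 99.4% identical over 794 aligned bases, yet Psme2 held 3 counts over the 6 libraries and Psme2b 22598. Psme2 has 2 transcript rows, and the counted one had 181 of 962 bases of its own. Psme2b has 1 row, with 796 of 837 bases of its own. Reads that fit both rows of Psme2 were apparently not counted, and the part of this in the difference was not tested. The reading frames of Psme2 and Psme2b, 720 bases each, differed at 5 positions. The stretch with the most differences, bases 454 to 543 of the frame, shows how little there is to tell the genes apart, with the 3 differing bases in capitals (GENCODE M21, sense strand).
Psme2: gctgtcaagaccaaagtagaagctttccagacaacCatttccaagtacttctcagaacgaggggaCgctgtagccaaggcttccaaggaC
Psme2b: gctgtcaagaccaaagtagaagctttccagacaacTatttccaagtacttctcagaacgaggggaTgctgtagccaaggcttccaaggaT
The values of Psme2b may therefore belong to either gene, and Psme2 was not tested.

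Processed copies of 3 raised subunits rose as well. Gm8394, a pseudogene on chromosome 10 that is 98.6% identical to Psma5 over 952 aligned bases, held 10367 counts, against 9795 for Psma5. It measured 67.3, 64.1 and 70.9 CPM in Crebl2 siRNA libraries, against 58.5, 57.0 and 54.6 CPM in Luc siRNA libraries, a log2 change of 0.25 (edgeR adjusted p = 0.0028) beside 0.27 for Psma5. Gm5422, 96.4% identical to Psmd2, had a log2 change of 0.17 (edgeR adjusted p = 0.0142) beside 0.18 for Psmd2, a call lost without Luc siRNA replicate 2 (0.0558) or 3 (0.105). Gm4950, 97.1% identical to Psmb3, had 0.31 (0.00146) beside 0.26. With each copy's counts added to its member before the fit, which was chosen with the data seen, the log2 fold changes were 0.258 for Psma5, 0.180 for Psmd2 and 0.277 for Psmb3, all called. A730017L22Rik on chromosome 2, which shares 18.9% of the 50-base stretches of the Psmd11 transcript, rose by a log2 change of 0.26 (edgeR adjusted p = 0.000502), whereas Psmd11 was at -0.11 without a call. Which locus the shared reads came from was not tested.

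**Figure D4:**
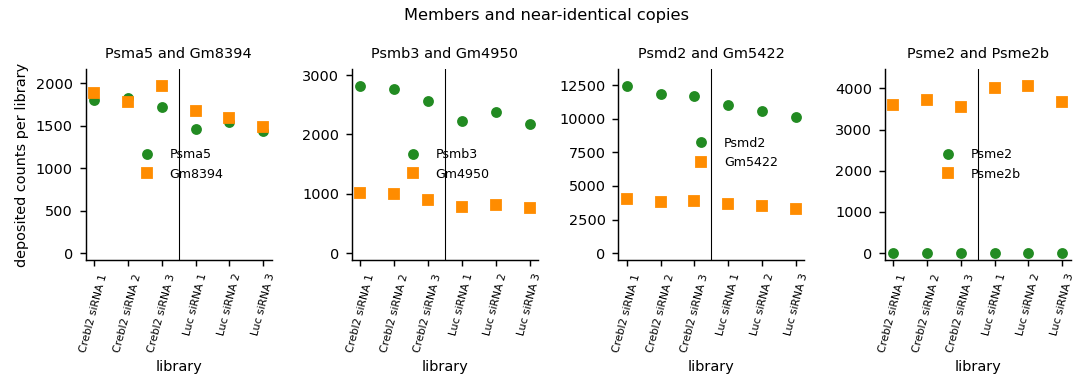
Deposited counts per library (y axis, from 0) of 4 members (green circles) and a near-identical gene elsewhere (orange squares), Crebl2 siRNA libraries left of the line. Gm8394 holds about as many counts as Psma5, and nearly all counts of the Psme2 pair lie on Psme2b.

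Promoters of the members were read from RefSeq (GRCm38.p6), from 250 bases before to 50 after the start, for 42 of the 50 members. Motifs were searched on both strands, where matches may overlap: CCAAT, the NF-Y box; TGACNNNGC, the antioxidant response element bound by Nfe2l1 and Nfe2l2; TGACGTCA, the CREB site; and a form of the NRF1 site, GCGC and again GCGC with any 2 bases between. NRF1 here is the nuclear respiratory factor, a different protein from Nfe2l1, which also goes by that name. CCAAT was found in 15 of 42 members (35.7%), against 37.4% of all promoters in the table, and TGACNNNGC in 6 (14.3%), against 12.4%. The NRF1 form was found in 7 (16.7%), against 6.23%, and TGACGTCA in 0, against 1.79%. A member counted if any of its promoters held the motif, whereas the shares of all promoters are per promoter. Per promoter, the 45 member promoters held CCAAT in 33.3%, TGACNNNGC in 13.3% and the NRF1 form in 15.6%. Below are the 150 bases before the RefSeq start, which can differ from the GENCODE start, of 3 raised members and of the lowered Psmd10, 5′ to 3′ on the gene's own strand, with motif letters in capitals. The Psmc5 match begins 49 bases before the start and the Psmb6 match 9, those of Psmb3 85 and 43, and those of Psmd10, on the opposite strand, 47 and 24. All printed promoters hold a match, whereas Psmb8, the other lowered member, had none in its 150 bases. Among the raised members, only Psmb3, Psmb6, Psmc1, Psmc2, Psmc5 and Psmc3ip had a match in the promoters read. Uncalled members with a match were Psma1, Psma2, Psma3, Psma4, Psma6, Psma7, Psmb5, Psmb9, Psmc4, Psmc6, Psmd4, Psmd9, Psmd12, Psmd14, Psme3, Psme4 and Psmg1. Of the members with the NRF1 form, only Psmc5 was raised and the others were not called.
Psmc5 (chr11:106256035-106256184, plus strand): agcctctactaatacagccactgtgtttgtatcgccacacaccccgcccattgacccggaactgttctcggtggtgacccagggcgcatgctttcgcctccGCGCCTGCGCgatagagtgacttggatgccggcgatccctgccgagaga
Psmb6 (chr11:70525207-70525356, plus strand): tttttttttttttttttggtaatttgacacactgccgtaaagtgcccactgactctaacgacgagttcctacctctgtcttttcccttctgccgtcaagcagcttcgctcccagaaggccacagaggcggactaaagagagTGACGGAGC
Psmb3 (chr11:97703284-97703433, plus strand): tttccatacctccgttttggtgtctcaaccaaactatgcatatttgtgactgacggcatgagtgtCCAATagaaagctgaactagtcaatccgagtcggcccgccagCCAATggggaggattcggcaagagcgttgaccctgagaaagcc
Psmd10 (chrX:140956712-140956861, minus strand): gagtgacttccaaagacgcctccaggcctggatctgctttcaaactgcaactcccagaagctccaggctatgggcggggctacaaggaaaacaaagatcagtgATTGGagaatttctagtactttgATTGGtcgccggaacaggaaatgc
A match is a description of letters only.

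Psmc3ip, the meiotic factor that the naming rule brings in, also rose. It measured 20.2, 21.0 and 21.9 CPM in Crebl2 siRNA libraries, against 18.1, 18.8 and 17.5 CPM in Luc siRNA libraries, a log2 change of 0.21 (SE 0.0739; edgeR adjusted p = 0.0305). The call was lost without Crebl2 siRNA replicate 2 (adjusted p = 0.0739) or 3 (0.0606) and without Luc siRNA replicate 1 (0.075), 2 (0.051) or 3 (0.135). Without this gene, 15 of 45 tested members rose.

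Proteins that work with the proteasome but carry other names went in both directions, near the shares of all genes. Of 33 such genes, 22 were tested. No row bears the symbols Paaf1 or AI314180. The latter gene is named Ecpas in GENCODE M21, and its counts under that symbol were not read. Of the 22, 3 rose (13.6%) and 5 fell (22.7%), beside 18.8% and 20.1% of all genes, with a median log2 change of 0.01. Adrm1 (Rpn13), the ubiquitin receptor of the base, rose to 32.4, 31.3 and 28.0 CPM in Crebl2 siRNA libraries, against 26.6, 24.9 and 26.4 CPM in Luc siRNA libraries (log2 fold change 0.24; edgeR adjusted p = 0.0157). The shuttle Rad23b (0.13; edgeR adjusted p = 0.0328) and the glycanase Ngly1, which helps activate Nfe2l1 (0.18; 0.0378), rose too. Ubqln2, another shuttle, showed the steepest fall of the list, to 133, 128 and 127 CPM in Crebl2 siRNA libraries, against 196, 192 and 198 CPM in Luc siRNA libraries (log2 fold change -0.59, SE 0.0485; edgeR adjusted p = 9.62e-08). Nfe2l2 fell by 0.26 (edgeR adjusted p = 0.000497), the protease Ddi2, which cleaves Nfe2l1, by 0.22 (0.0054), the p97 adaptor Faf2 by 0.18 (0.00847) and Zfand5, a proteasome-binding stress protein, by 0.16 (0.0304) on the log2 scale. Pomp, the chaperone of the core, was not called (log2 fold change 0.09; edgeR adjusted p = 0.191). Nfe2l1 itself had 2 counts over the Crebl2 siRNA libraries and 6 over the Luc siRNA libraries and could not be tested. Each of the 3 rises was lost in some setting, and without Luc siRNA replicate 2 none of the list rose by edgeR (Adrm1 0.0831, Rad23b 0.121 and Ngly1 0.136 in adjusted p), while the Faf2 call was lost without Crebl2 siRNA replicate 2 (0.0665). Adrm1 was also lost without Crebl2 siRNA replicate 1 (0.0525) or 2 (0.06), Rad23b without Luc siRNA replicate 3 (0.151), and Ngly1 without Crebl2 siRNA replicate 2 (0.0752) or 3 (0.124) or Luc siRNA replicate 3 (0.118). The Zfand5 call was lost without Crebl2 siRNA replicate 1 (0.0807) or 2 (0.195), without any one Luc siRNA replicate (0.0792, 0.0628 and 0.0703 for 1, 2 and 3) and with library size alone (0.119).

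Few genes that work with the immunoproteasome in antigen presentation were called. Of 13 tested genes of the 16 listed, 1 rose (7.69%) and 2 fell (15.4%), beside 18.8% and 20.1% of all genes. Tapbp (tapasin), which loads peptides onto class I molecules, fell to 400, 375 and 362 CPM in Crebl2 siRNA libraries, against 507, 531 and 532 CPM in Luc siRNA libraries (log2 fold change -0.47, SE 0.0498; edgeR adjusted p = 1.74e-06). Ifngr1, a subunit of the interferon gamma receptor, fell by 0.41 on the log2 scale (SE 0.049; edgeR adjusted p = 6.14e-06). Erap1, which trims peptides in the endoplasmic reticulum, rose to 173, 195 and 206 CPM in Crebl2 siRNA libraries, against 152, 149 and 146 CPM in Luc siRNA libraries (log2 fold change 0.36, SE 0.06; edgeR adjusted p = 0.000171). The peptide transporter genes Tap1 and Tap2, which lie beside Psmb8 and Psmb9 on chromosome 17, had log2 fold changes of 0.06 (SE 0.202) and 0.00 (SE 0.0636), neither called. Psmb9 and Tap1 overlap on opposite strands. B2m, the class I light chain, missed the threshold at -0.13 (edgeR adjusted p = 0.0515), and was called without Crebl2 siRNA replicate 3 (-0.184; 0.00421) and by DESeq2 (0.0467).

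**Figure D5:**
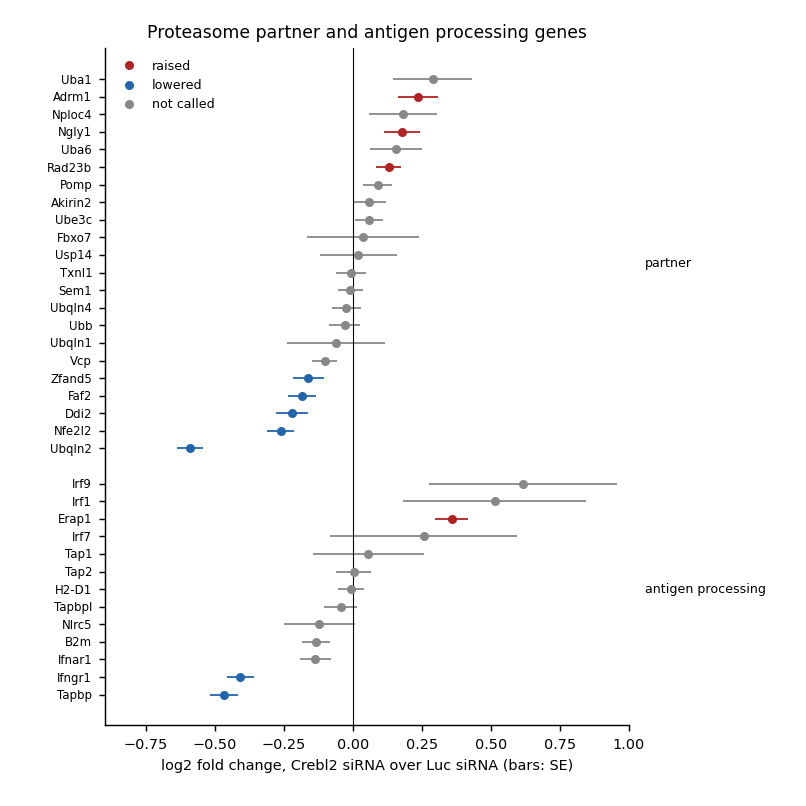
Log2 fold change (x axis, Crebl2 siRNA over Luc siRNA) with SE bars of the 22 tested partner genes (top) and 13 tested antigen processing genes (bottom); red points were raised, blue lowered and grey not called. Both lists spread to either side of 0, with Ubqln2 at -0.59 and Tapbp at -0.47 lowest in each.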

How the data were processed

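RNA was measured in 6 libraries, grouped and numbered by their labels, which name a stranded total RNA kit. The authors deposited raw read counts per transcript. The submitters' processing notes name TopHat, HTSeq, Trim Galore and the builds GRCm38 and mm9, without versions, roles or settings, and the strand setting of the counting is not stated in them. Of 58611 rows, 58264 matched GENCODE M21 (GRCm38); the others took no more than 0.0497% of any library. Counts were summed per gene and tested with the two-sided quasi-likelihood test of edgeR 4.0.16 (R 4.3.3; TMM scaling, filterByExpr, Benjamini-Hochberg over 11616 genes). SEs come from the fold change and its F statistic. CPM use TMM-scaled library sizes. The fit was tested on simulated data. Replicate pairs differed by more than sampling noise (chi-square per degree of freedom 2.81 to 20.7), so none was merged. Alternatives were DESeq2 1.42.0, its size factors, library size alone, no filter, a 1 CPM filter, limma-voom (limma 3.58.1), the replicate block, 1 transcript row per gene and each library left out; adding copies' counts was chosen after seeing the data. Shared sequence was counted in stretches of 50 bases of GENCODE transcripts.

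Members and lists were chosen with earlier results of these data known. Full values are given for up to 4 called members per role with the smallest p, or, in a role with no call, the member of smallest p; other members are given because all are accounted for. Partner and antigen processing genes named are up to 4 called per direction, with Nfe2l1 and Pomp in any case; Psmd14, Psmb5, Psmg1, the other uncalled members with library values, the remaining list genes and the copies were chosen after their values were seen.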

Additional observations from a re-analysis of the deposited data

How the results depend on the processing

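Over the 15 alternatives the Crebl2 knockdown kept its call, with log2 fold changes from -1.942 to -1.847, and raised members numbered 10 to 24. Leaving out 1 library gave 10 to 16 raised and 1 to 3 lowered members, 0 to 3 raised and 3 to 5 lowered partner genes, and 1 to 2 raised and 2 to 4 lowered antigen processing genes. With library size alone 1 member fell and the members' median log2 fold change was 0.142, against 0.093, while that of all genes was 0.054. The replicate numbers did not pair the libraries (correlations of same-numbered libraries -0.133, -0.0443 and -0.0847); with the replicate block 11 members rose and 1 fell, 1 partner gene rose, and Zfand5 lost its call (adjusted p = 0.0527). The 3 ratios of inducible over constitutive subunits stayed negative, from -0.483 to -0.161.

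In some setting 7 called members lost the call and 11 uncalled ones gained it, and 9 uncalled members changed sign. With library size alone Psme4 was at 0.037 and Psmg4 at 0.032. Leaving out 1 library gave log2 changes from -0.016 to 0.098 for Psma3, -0.020 to 0.067 for Psmd12, -0.007 to 0.068 for Psmd14, -0.353 to 0.097 for Psmd4, -0.007 to 0.058 for Psme3, -0.076 to 0.059 for Psme4, -0.010 to 0.049 for Psmf1, -0.088 to 0.190 for Psmg1, -0.138 to 0.084 for Psmg4, -0.076 to 0.210 for Tap1 and -0.066 to 0.061 for Tap2, which was at -0.003 with no filter. The cause of these changes was not tested. The 6 tested members with under 1000 counts had a median SE of 0.201, and the other 40 one of 0.0554.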
